A study of Mus musculus with 18 samples.

Results

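The genes described here are 10 basic leucine zipper transcription factors of the AP-1 group in mouse bone marrow-derived macrophages (BMDMs): Fos, Fosb, Fosl1, Fosl2, Jun, Junb, Jund, Atf3, Batf and Batf3. They were selected as a list of symbols, with earlier results of these data known, and all 10 were among the 22852 gene symbols of the count files. Of these, 8 passed the filter on low counts and were among the 11305 genes tested, while Fosb and Batf3 did not pass and are given as counts only. RNA-Seq counts were available for 18 samples of BMDMs grown for 7 days from the marrow of female C57BL/6 mice, 3 in each of 6 groups. Unstimulated BMDMs received neither LPS nor carboplatin, and LPS-stimulated BMDMs received LPS, the endotoxin of Gram-negative bacteria, at 10 ng/ml for 3 h (the duration is from the scheme of the experiment). LPS-primed BMDMs received LPS at 100 ng/ml for 24 h. LPS-tolerant BMDMs were primed in the same way, their medium was then replaced, and the fresh medium held LPS at 10 ng/ml for 3 h. The LPS-primed and LPS-tolerant states were each also prepared with 25 µM carboplatin, a platinum drug that forms DNA adducts, added 1 h before priming. The second dose of LPS therefore always came together with a change of medium and a further 3 h of culture, and these cannot be told apart in the comparison of LPS-tolerant with LPS-primed BMDMs. Whether unstimulated and LPS-stimulated BMDMs also received fresh medium was not given in the sources used here. Nor was it given whether the fresh medium of carboplatin-treated LPS-tolerant BMDMs also held the drug.

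AP-1 is a dimer of a Fos protein with a Jun protein, or of Jun proteins with each other, that binds short palindromic DNA elements in promoters and enhancers. ATF3 and the BATF proteins share the leucine zipper, pair with Jun proteins, and lack the activation domains of Fos, and ATF3 is known in macrophages as a brake on inflammatory genes that LPS induces through Toll-like receptor 4. Fos, Jun and their relatives are immediate-early genes, whose transcripts appear soon after MAP kinase signalling and are short-lived, whereas JunD is present in resting cells.

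The sequence before the start of 5 of these genes is shown because Junb, Fosl2 and Batf were highest after the single dose of LPS while Fos and Jun were not. Promoter windows were those of RefSeq on GRCm38.p6, a matching entry was present for 9 of the 10 genes (not Fosl1), and the 250 bases before the start are printed 5′ to 3′ on the strand of the gene. Capitals mark matches, on either strand, to TGANTCA (the AP-1 element), TGACGTCA (the CRE), TGACATCA, TGACG (the core of the CRE, which a full CRE also holds), the CArG box, the kappaB site or TATAAA.
Fos, chr12:85473640-85473889, plus strand: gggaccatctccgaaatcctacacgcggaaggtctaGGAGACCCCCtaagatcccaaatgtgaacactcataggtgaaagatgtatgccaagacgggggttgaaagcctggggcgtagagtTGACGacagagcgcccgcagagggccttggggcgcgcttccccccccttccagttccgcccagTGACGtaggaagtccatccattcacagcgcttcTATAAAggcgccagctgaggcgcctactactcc
Fosl2, chr5:32136222-32136471, plus strand: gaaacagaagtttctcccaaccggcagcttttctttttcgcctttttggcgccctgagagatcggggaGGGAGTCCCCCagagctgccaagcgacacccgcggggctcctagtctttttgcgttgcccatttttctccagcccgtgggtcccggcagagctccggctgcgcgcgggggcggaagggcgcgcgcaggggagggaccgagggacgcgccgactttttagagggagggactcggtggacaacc
Jun, chr4:95052223-95052472, minus strand: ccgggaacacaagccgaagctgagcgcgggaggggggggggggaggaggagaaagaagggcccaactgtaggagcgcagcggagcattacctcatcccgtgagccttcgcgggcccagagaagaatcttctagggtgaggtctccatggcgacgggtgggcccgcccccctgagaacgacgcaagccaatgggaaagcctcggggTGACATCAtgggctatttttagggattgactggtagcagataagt
Junb, chr8:84978749-84978998, minus strand: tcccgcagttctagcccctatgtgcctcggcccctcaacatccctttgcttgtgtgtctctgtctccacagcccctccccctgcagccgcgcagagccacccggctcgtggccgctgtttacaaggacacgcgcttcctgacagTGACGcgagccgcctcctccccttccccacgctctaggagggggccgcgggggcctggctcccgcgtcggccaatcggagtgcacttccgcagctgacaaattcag
Batf, chr12:85686470-85686719, plus strand: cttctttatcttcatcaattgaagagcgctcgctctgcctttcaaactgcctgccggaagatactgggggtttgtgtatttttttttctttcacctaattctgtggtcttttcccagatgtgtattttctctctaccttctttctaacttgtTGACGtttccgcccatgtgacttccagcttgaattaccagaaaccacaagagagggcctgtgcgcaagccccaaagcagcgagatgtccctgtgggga
None of the 9 windows held TGANTCA, TGACGTCA or a CArG box, which were found in 6.75%, 1.55% and 1.47% of 32851 promoter windows of the same length. TGACATCA, present in 2.93% of all windows, was found before Jun, 45 to 38 bases before the start. The core TGACG was found before Fos, where it occurred at 129 to 125 and at 66 to 62 bases from the start, before Junb at 106 to 102 and before Batf at 98 to 94. Fosb and Atf3 also held it, so that 5 of 9 windows had this motif, against 17.8% of all windows. A kappaB match lay before Fos, Fosb and Fosl2, where 2 matches overlapped (3.9% of all windows), and TATAAA lay before Fos (12.4%). These are matches of letters within the window and not measured binding. Bases further than 250 before the start were not searched, so that a motif there would be missed.

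Between 6869667 and 14708099 counts per sample were assigned to genes. All 8 macrophage markers, among them Adgre1, Csf1r and Lyz2, had over 10 counts in every sample, with sums of 142042 to 304597 normalized counts, and their sums were lowest in unstimulated and LPS-stimulated BMDMs. Among B cell markers, Cd79a and Ms4a1 had at most 2 counts in any sample, but Ighm had 267 to 1697 counts in unstimulated BMDMs, 58 to 305 in LPS-stimulated BMDMs and at most 10 in the others. Of 7 dendritic cell markers, 1 gene (Wdfy4) passed 10 counts in every sample, and the 4 fibroblast markers summed to at most 73.1 normalized counts, mostly Dcn, in groups primed with LPS and to at most 3.64 in unstimulated BMDMs. Neutrophil markers summed to at most 12.9, T and NK cell markers to at most 3.58, and the 3 mast cell markers were at 0 in every sample. The part of Ighm and Dcn in the LPS comparisons was not tested. In bulk RNA, fewer expressing cells and less RNA per cell cannot be told apart.

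On GRCm39, Fos (chromosome 12, 85520658 to 85524047, plus strand) and Batf (chromosome 12, 85733423 to 85755861, plus strand) lay on the same chromosome, as did Junb (chromosome 8, 85701113 to 85705359, minus strand) and Jund (chromosome 8, 71151599 to 71153265, plus strand). Atf3 (chromosome 1, 190902493 to 190950241, minus strand) and Batf3 (chromosome 1, 190830044 to 190841142, plus strand) were near neighbours. Jun lay on chromosome 4 (94937271 to 94940459, minus strand), Fosl1 on chromosome 19 (5497575 to 5505974, plus strand), Fosl2 on chromosome 5 (32292707 to 32315186, plus strand) and Fosb on chromosome 7 (19036621 to 19043976, minus strand). Jun and Jund are each annotated with a single exon block. Fosl1 shares 1163 exon bases with Ccdc85b on the opposite strand and Junb shares 173 with Prdx2, and the strand setting of the counting was not given in the sources used here. Ccdc85b was at 239 ± 26.6 normalized counts in unstimulated BMDMs (SD, n = 3 as for all groups) and 77.7 ± 24.1 in LPS-stimulated BMDMs. Its log2FC was -1.63 (SE 0.31, edgeR adjusted p = 3.8e-04), opposite in direction to that of Fosl1 in the same comparison. Prdx2 was between 1035 and 2432 normalized counts in all 18 samples.

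**Figure D1:**
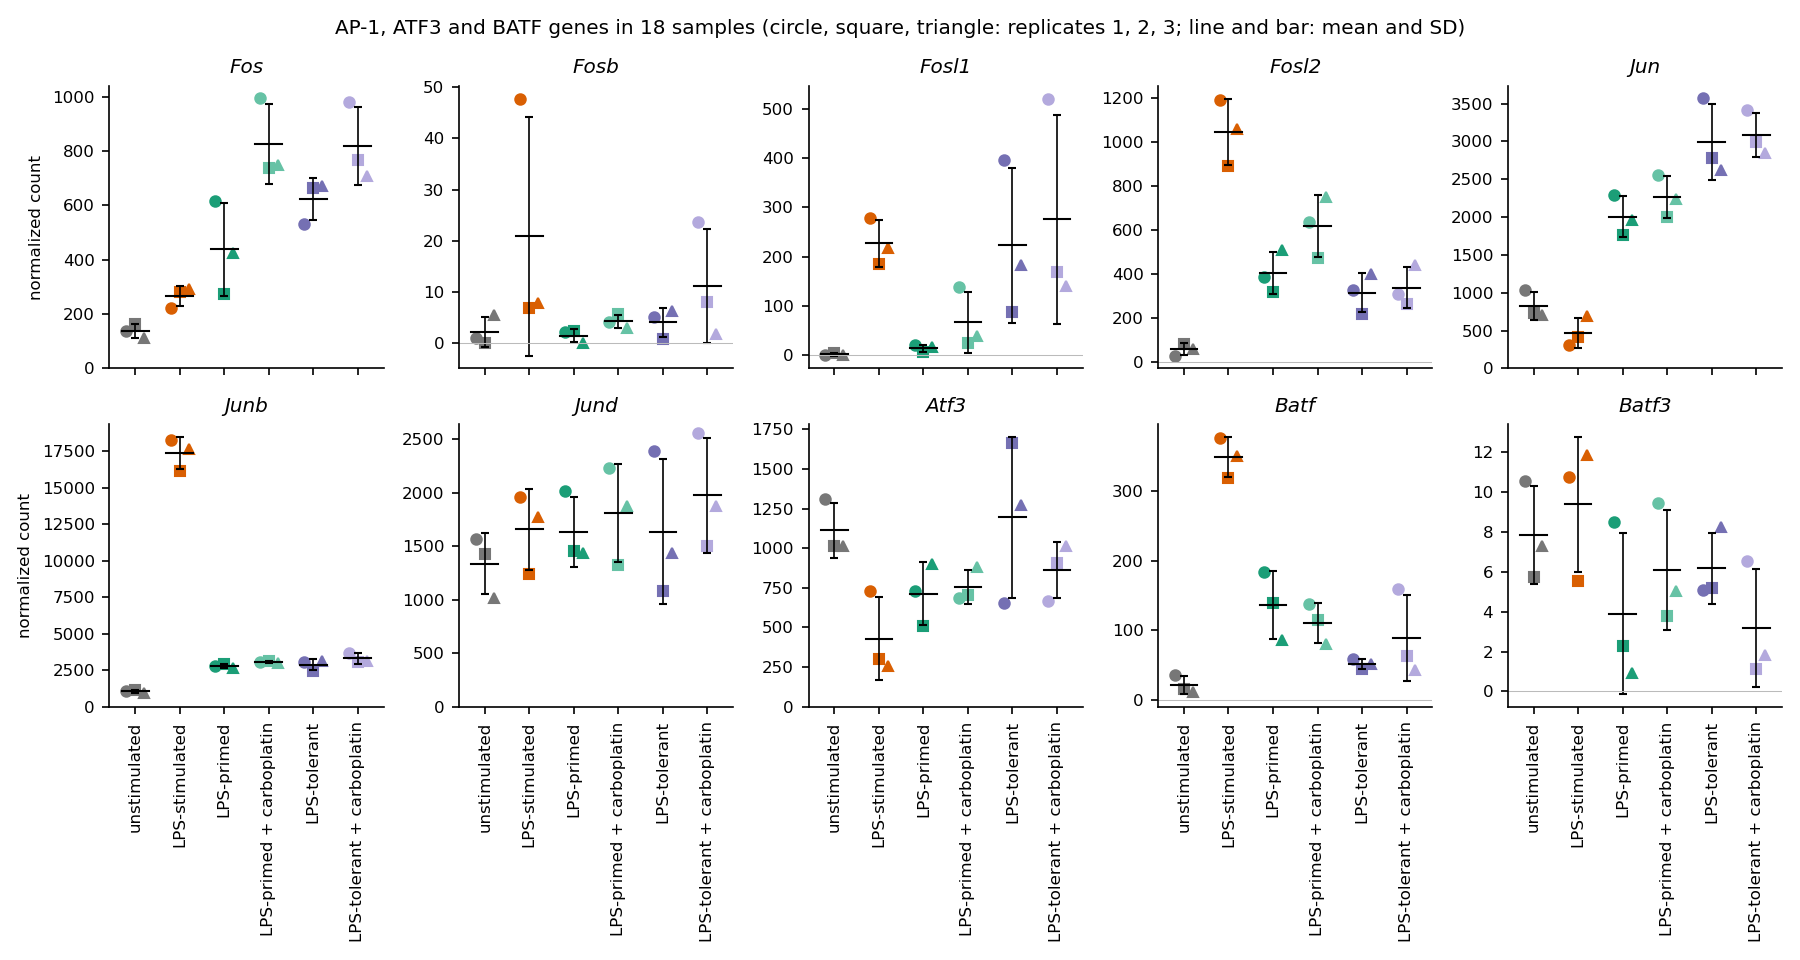
Normalized counts (vertical axes, each from its own 0) of the 10 genes in the 6 groups (horizontal axes), with circles, squares and triangles for replicates 1, 2 and 3 and a line and bar for mean and SD. The 3 LPS-stimulated samples lie above all others for Junb, Fosl2 and Batf, while the highest Jun values are those of the LPS-tolerant groups.

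Levels of different genes were compared per kb of annotated exon. In unstimulated BMDMs, Jund was highest, at 802 ± 171 normalized counts per kb, followed by Atf3 at 456 ± 70.7 and Junb at 446 ± 43.7, which overlapped. Jun was at 258 ± 58.4 and Fos at 58.1 ± 11.1 per kb. The Fos-related genes apart from Fos were low, with Fosl2 at 5.72 ± 2.62 and Fosl1 at 0.829 ± 1.05 per kb, and Batf was at 14.9 ± 8.76 per kb. Batf3, at 4.91 ± 1.53, and Fosb, at 0.342 ± 0.466 per kb, were also low.

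The response to a first dose of LPS was read from LPS-stimulated against unstimulated BMDMs. Fosl1, Fosl2, Junb, Batf and Fos were higher, Jun and Atf3 were lower, and Jund did not pass the test. Only the level at 3 h was sampled, so that an earlier rise or fall would not be seen. In the quasi-likelihood test of edgeR, called at an adjusted p (Benjamini-Hochberg) under 0.05, 5 of the 8 tested genes were higher and 2 lower, while 24.3% of all 11305 tested genes were higher and 26.9% lower. Scaled by library size alone, 16.3% of all genes were higher and 41% lower and the median log2FC of all genes moved from -0.09 to -0.43, with the same 7 genes called in the same directions. The median log2FC of the 8 genes was 2.49.

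Among the Fos family, Fos, the founding member and partner of Jun, was at 137, 163 and 111 normalized counts in the 3 unstimulated samples and at 223, 281 and 294 in the 3 LPS-stimulated samples. The groups did not overlap, and the log2FC was 0.96 (SE 0.25, edgeR adjusted p = 0.00412). Fosl1, which encodes Fra-1, was at 0.956, 4.1 and 0 in unstimulated samples and at 279, 185 and 218 in LPS-stimulated samples. It had at most 5 counts in an unstimulated library and 221 to 267 in an LPS-stimulated library, and the log2FC of 6.90 (SE 0.97, adjusted p = 1.8e-05) depends on the prior count, with a value of 5.93 at a prior count of 2 and 8.60 without unstimulated replicate 2. Fosl2, which encodes Fra-2, was at 31.5, 86.1 and 60.9 in unstimulated samples and at 1192, 893 and 1059.8 in LPS-stimulated samples. These groups were far apart, with a log2FC of 4.13 (SE 0.34, adjusted p = 4.6e-08).

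Among the Jun family, Junb, whose protein often counters c-Jun, was at 1109, 1134 and 943 in unstimulated samples and at 18261, 16133 and 17665 in LPS-stimulated samples. It had the smallest spread of the genes that rose, with a log2FC of 4.03 (SE 0.14, adjusted p = 5.2e-12). Jun, which encodes c-Jun, moved the other way, from 1036, 726 and 703 to 311, 412 and 692. The LPS-stimulated samples were all lower, although the highest of them was only just under the lowest unstimulated sample. The log2FC of Jun was -0.80 (SE 0.24, adjusted p = 0.00955), and the call was lost without unstimulated replicate 1 (log2FC -0.58, adjusted p = 0.0682), in a fit of these 6 samples alone (adjusted p = 0.0695) and in replicates 2 and 3 alone (log2FC -0.37, adjusted p = 0.132). Jund was at 1568, 1424 and 1018 in unstimulated samples and at 1962, 1237 and 1777 in LPS-stimulated samples. Its groups overlapped, and the log2FC was 0.31 (SE 0.29, adjusted p = 0.384).

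Atf3 was at 1312, 1015 and 1013 in unstimulated samples and at 730.2, 302 and 257 in LPS-stimulated samples. All LPS-stimulated samples were lower, replicate 1 least so, and the log2FC was -1.38 (SE 0.36, adjusted p = 0.00433), or -1.99 without LPS-stimulated replicate 1. Batf, a partner of Jun proteins at sites shared with interferon regulatory factors, was at 35.4, 16.4 and 11.8 in unstimulated samples and at 376, 318 and 350.0 in LPS-stimulated samples. The groups were far apart, with a log2FC of 4.04 (SE 0.47, adjusted p = 2.1e-06). Without unstimulated replicate 1 it was 4.62.

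The state after 24 h of LPS was read from LPS-primed against unstimulated BMDMs, a comparison that uses the same unstimulated samples. Here Fos, Fosl2, Jun, Junb and Batf were higher, and no gene of the group was lower. In all, 5 of 8 tested genes were called higher and 0 lower at an adjusted p under 0.05 (edgeR), while 12.1% of all tested genes were higher and 13.1% lower. DESeq2 called 6 genes (14% of all genes higher, 14.6% lower) and limma-voom 5 (12% and 14.6%). An unadjusted edgeR p under 0.05 was found for 6 of the 8 genes and for 4053 of all 11305. With scaling by library size alone, 8.24% of all genes were higher and 23% lower, and the median log2FC of all genes moved from -0.02 to -0.26.

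Fos was at 616, 273 and 426 normalized counts in LPS-primed samples, all above unstimulated samples, with a log2FC of 1.68 (SE 0.25, adjusted p = 8.4e-05). Fosl2 was at 388, 319 and 510.1, again without overlap, and the log2FC was 2.76 (SE 0.33, adjusted p = 7.6e-06). Fosl1 was at 21.2, 6.84 and 15.9, from 6 to 20 counts per library. All of these exceeded the unstimulated samples, but the log2FC of 2.97 (SE 1.17) had an adjusted p of 0.0737. With the replicate number as a block, Fosl1 was called (log2FC 2.93, adjusted p = 0.00735), in a fit that called 18.9% of all genes higher and 19.8% lower. Leaving out single libraries moved the log2FC of Fosl1 between 2.45 and 4.67, the latter without unstimulated replicate 2.

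Jun was at 2293, 1761 and 1958 in LPS-primed samples, all above the unstimulated samples, with a log2FC of 1.29 (SE 0.24, adjusted p = 6.0e-04). Junb was at 2762, 2925 and 2643, and the log2FC was 1.39 (SE 0.13, adjusted p = 5.1e-07). Both groups of Junb values were tight, and the LPS-primed values were far under those after the single dose. Jund was at 2013, 1453 and 1438, overlapped the unstimulated samples, and had a log2FC of 0.29 (SE 0.29, adjusted p = 0.520). Atf3 was at 731, 507 and 902, under every unstimulated sample, but its log2FC of -0.64 (SE 0.35) did not pass the test (adjusted p = 0.213). Batf was at 183, 139 and 85.3, all above unstimulated samples, with a log2FC of 2.68 (SE 0.46, adjusted p = 3.0e-04), which was 3.26 without unstimulated replicate 1.

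The response to the second dose was read from LPS-tolerant against LPS-primed BMDMs. Fosl1 was higher, and no other gene of the group passed the test, so that 1 of 8 tested genes was called higher and 0 lower, against 3.6% and 2.71% of all tested genes (edgeR, adjusted p under 0.05). Scaled by library size alone, these shares were 2.62% and 4.21%. Called with the replicate number as a block, Batf was also lower, and 2 of 8 genes passed, against 9.67% of all genes higher and 8.32% lower in that fit. In replicates 2 and 3 alone, 4 genes passed, with Fos (log2FC 0.95) and Atf3 (log2FC 1.07, both with an adjusted p of 0.0235) higher beside Fosl1 and with Batf lower, against 3.83% of all genes higher and 2.66% lower.

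Fosl1 was at 396, 88.1 and 184 normalized counts in LPS-tolerant samples, each above every LPS-primed sample. The log2FC was 3.89 (SE 0.75, adjusted p = 0.00483), and 3.19 without LPS-tolerant replicate 1, the highest library. The values lay around those of the first dose, from which they differed by a log2FC of -0.03 (SE 0.61, adjusted p = 0.973).

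Junb was at 3086, 2443 and 3112 in LPS-tolerant samples, on both sides of the LPS-primed samples, with a log2FC of 0.05 (SE 0.13, adjusted p = 0.871). Fosl2 was at 329, 222 and 400.5, which overlapped the LPS-primed samples, with a log2FC of -0.36 (SE 0.30, adjusted p = 0.547). Batf was at 58.2, 44 and 51.5, all under the LPS-primed samples, with a log2FC of -1.41 (SE 0.43, adjusted p = 0.0594). This missed the limit, whereas the blocked fit gave -1.35 (adjusted p = 0.00334). Jun was at 3567, 2775 and 2625, the highest levels of this gene in the samples without carboplatin and above all LPS-primed samples, with a log2FC of 0.58 (SE 0.23, adjusted p = 0.160). Fos was at 533, 665 and 672 (log2FC 0.51, SE 0.24, adjusted p = 0.236), within the reach of LPS-primed replicate 1. Atf3 was at 655, 1662 and 1273 in LPS-tolerant samples, a wide spread in which replicate 1 stood low, and its log2FC was 0.75 (SE 0.35, adjusted p = 0.238). Jund, at 2389, 1079 and 1441, had a log2FC of 0.00 (SE 0.29, adjusted p = 1).

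**Figure D2:**
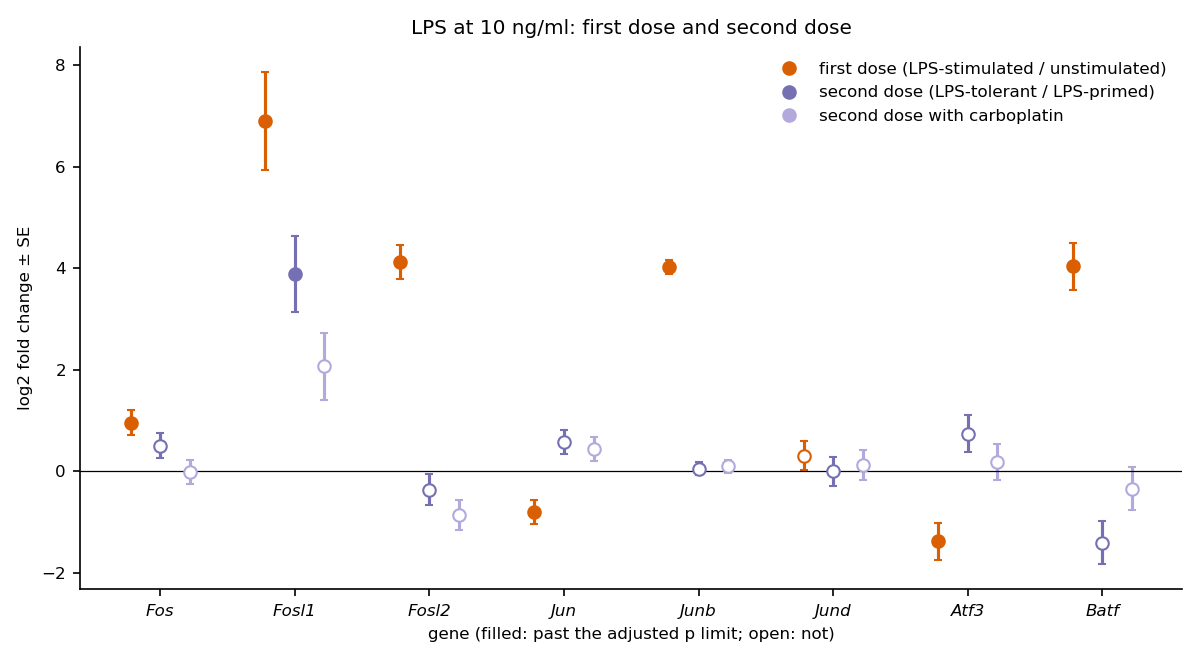
Log2FC with its SE (vertical axis) of the 8 tested genes (horizontal axis) for the first dose of LPS, the second dose, and the second dose in carboplatin-treated BMDMs, with filled points for values past the adjusted p limit of 0.05. Fosl2, Junb and Batf stand near 4 for the first dose and at or below 0.05 for the second, whereas Fosl1 is filled for both doses.

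Whether the responses to both doses differed was tested as an interaction, the log2FC of the second dose less that of the first dose, over the 4 groups. Fosl2, Junb and Batf responded less to the second dose, and Jun and Atf3, which had fallen after the first dose, did not fall. The 2 doses started from unlike levels. In LPS-primed against unstimulated BMDMs the log2FC was 2.76 for Fosl2, 1.39 for Junb, 2.68 for Batf and 1.29 for Jun, while Atf3 did not pass. In total, 3 of 8 tested genes were called lower and 2 higher (edgeR, adjusted p under 0.05), against 13.3% and 10.5% of all tested genes. Scaled by library size alone, 9.54% of all genes were lower and 16.5% higher and the median of all genes moved from 0.06 to 0.30, with the same genes called. The difference was -4.49 for Fosl2 (SE 0.45, adjusted p = 1.3e-06), -3.98 for Junb (SE 0.19, adjusted p = 3.8e-10) and -5.45 for Batf (SE 0.63, adjusted p = 7.15e-06).

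The difference between doses was 1.38 for Jun (SE 0.33, adjusted p = 0.00574). For Atf3 it was 2.12 (SE 0.51, adjusted p = 0.00528), and 2.73 without LPS-stimulated replicate 1. Fosl1 had a difference of -3.01 (SE 1.34), which did not pass (adjusted p = 0.121), but passed without LPS-tolerant replicate 1 (difference -3.72, adjusted p = 0.0489). It was -4.69 without unstimulated replicate 2, the library with the 5 counts that were the most in that group. Fos, at -0.45 (SE 0.34), and Jund, at -0.31 (SE 0.41), did not pass (adjusted p = 0.388 and 0.637).

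The levels that BMDMs reached 3 h after 10 ng/ml LPS, with and without earlier priming, were compared directly as LPS-tolerant against LPS-stimulated BMDMs. Fos, Jun and Atf3 were higher in LPS-tolerant BMDMs, and Fosl2, Junb and Batf were lower. This comparison shares its samples with those above. Of the 8 tested genes, 3 were higher and 3 lower, against 16.2% and 18.3% of all tested genes (edgeR, adjusted p under 0.05). For Jun the log2FC was 2.66 (SE 0.25, adjusted p = 4.4e-07), and every LPS-tolerant sample was above every LPS-stimulated sample. The log2FC of Fos was 1.23 (SE 0.24, adjusted p = 8.6e-04), also without overlap. For Atf3 the log2FC was 1.48 (SE 0.36, adjusted p = 0.00407), with LPS-tolerant replicate 1 (655) under LPS-stimulated replicate 1 (730.2), and 2.10 without the latter library.

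For Junb the log2FC between these groups was -2.59 (SE 0.13, adjusted p = 5.0e-10). For Fosl2 it was -1.73 (SE 0.30, adjusted p = 2.8e-04) and for Batf -2.77 (SE 0.43, adjusted p = 1.0e-04). For all 3 genes the groups were apart in every sample. The share of all genes whose groups were apart in this way was not counted, here or in the other comparisons. Jund had a log2FC of -0.02 (SE 0.29, adjusted p = 0.967).

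The make-up of each family was then taken within samples, as each gene's share of the summed level per kb, a quantity that does not depend on the scaling between libraries and was chosen after the values were seen. In unstimulated BMDMs, Jund held 53.0% ± 2.78 of the Jun family, Junb 29.9% ± 2.74 and Jun 17.1% ± 2.21. After the first dose Junb held 86.5% ± 1.81, with 85.3% to 88.6% in the 3 samples, and Jun held 1.76% ± 0.704. In LPS-tolerant BMDMs the shares were 39.2% ± 5.08 for Junb, 30.3% ± 3.52 for Jun and 30.5% ± 6.07 for Jund, and these overlapped. In LPS-primed BMDMs Junb held 37.6% to 46.3%, which overlapped the LPS-tolerant samples, and Jun held 20.8% to 23.7%, below the 27.5% to 34.2% of the LPS-tolerant samples.

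Within the Fos family, Fos held 89.5% ± 3.93 of the summed level per kb in unstimulated and 79.2% ± 4.58 in LPS-primed BMDMs. After the first dose Fos, Fosl1 and Fosl2 were near parity, with 34.7% ± 7.05, 33.8% ± 4.37 and 30.6% ± 1.72. These shares rest on the annotated exon lengths, which were 2033 bases for Fosl1 and 10397 for Fosl2. Reads from the 1163 Fosl1 bases shared with Ccdc85b may not all have been counted, as the strand setting was not given. What this does to the shares was not tested. In LPS-tolerant BMDMs the share of Fosl2 was 7.47% ± 1.62 and that of Fosl1 was 25.8% ± 15.6, ranging from 12.5% to 43.0%. Fosb held at most 2.16% in any sample.

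**Figure D3:**
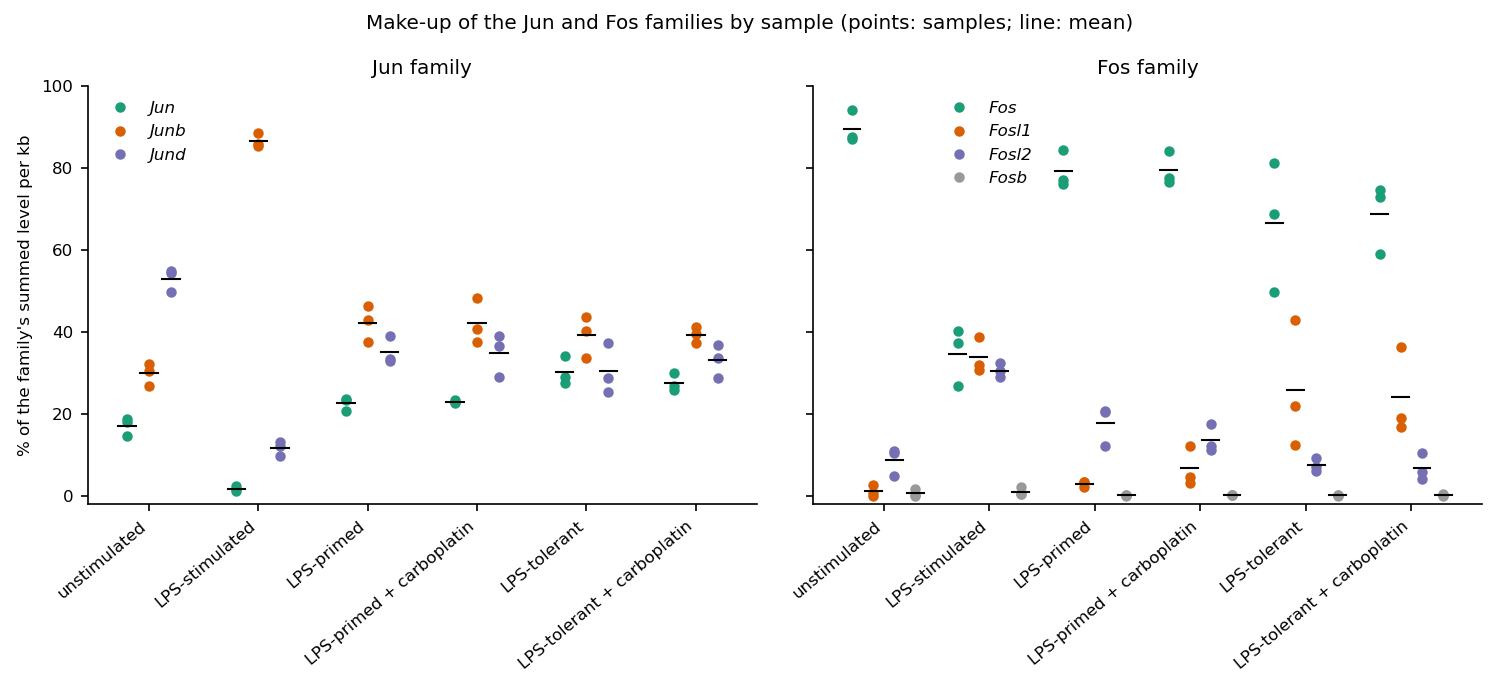
Share of each gene in the summed level per kb of the Jun family (left) and the Fos family (right), in percent (vertical axis), for the samples (points) and means (lines) of the 6 groups (horizontal axis). Junb stands at 85.3% to 88.6% of the Jun family in the 3 LPS-stimulated samples and at most at 48.2% in all others.

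Carboplatin was compared with vehicle in LPS-primed BMDMs at the study's limit of an adjusted p under 0.25. Fos was higher, and Fosl1 and Fosl2 were higher in each same-numbered pair without passing. In all, 1 of 8 tested genes was called higher and 0 lower (edgeR), against 0.0973% and 1.11% of all tested genes. With the replicate number as a block, 3 of the 8 genes passed, which were Fos, Fosl1 and Fosl2, but the block also raised the share of all genes to 2.71% higher and 5.17% lower. DESeq2 called 1 of the 8 genes, against 0.398% of all genes higher and 2.32% lower.

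Fos was at 995, 736 and 749 normalized counts in carboplatin-treated LPS-primed samples against 616, 273 and 426 in the LPS-primed samples. The groups did not overlap, and the log2FC was 0.91 (SE 0.24, adjusted p = 0.171). This call was lost without LPS-primed replicate 2 (log2FC 0.67, adjusted p = 0.709), without LPS-primed replicate 3 (adjusted p = 0.435) and without each of carboplatin-treated replicates 1 (adjusted p = 0.635), 2 (0.264) and 3 (0.359). It was also lost in a fit of these 6 samples alone (adjusted p = 0.474), and would not pass at an adjusted p under 0.05.

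Fosl1 was at 138, 24.4 and 39.2 in carboplatin-treated LPS-primed samples, all above the LPS-primed samples, with replicate 1 well above the others. Its log2FC was 2.14 (SE 0.76, adjusted p = 0.439). Without carboplatin-treated replicate 1 the log2FC was 1.10 (adjusted p = 0.971), and the replicate block over all samples gave an adjusted p of 0.0330. Fosl2 was at 640.2, 473 and 749.7, which overlapped the LPS-primed samples, with a log2FC of 0.61 (SE 0.30, adjusted p = 0.734, or 0.219 with the block). The other 5 tested genes had log2FC values from -0.29 (Batf) to 0.18 (Jun), with SE from 0.13 to 0.41. Junb, at 3068, 3152 and 2995, was just above the LPS-primed samples, with a log2FC of 0.15 (SE 0.13, adjusted p = 0.944).

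In LPS-tolerant BMDMs, no gene of the group was called for carboplatin. By edgeR 0 of 8 tested genes passed an adjusted p under 0.25, against 0.239% of all tested genes higher and 1.42% lower. None of the 8 had an unadjusted p under 0.05, against 761 of all 11305 genes, so that 0 of 8 is near the share of all genes. DESeq2 also called 0, against 0.487% of all genes higher and 2.28% lower, as did limma-voom (0.124% and 0.796%). With edgeR scaled by library size alone, 0.336% of all genes were higher and 0.982% lower. The genes with the largest log2FC in either direction were Batf, at 0.78 (SE 0.43, adjusted p = 0.855), and Atf3, at -0.47 (SE 0.35, adjusted p = 0.984). Batf was at 159, 63.7 and 43.2 in carboplatin-treated LPS-tolerant samples, with replicates 1 and 2 above and replicate 3 below all of the LPS-tolerant samples. Without that replicate 1 the log2FC of Batf was 0.06. Fos was at 979, 766 and 708, all above the LPS-tolerant samples, with a log2FC of 0.39 (SE 0.24, adjusted p = 0.903). Fosl1, at 521, 168 and 139.7, overlapped the LPS-tolerant samples, with a log2FC of 0.31 (SE 0.61).

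**Figure D4:**
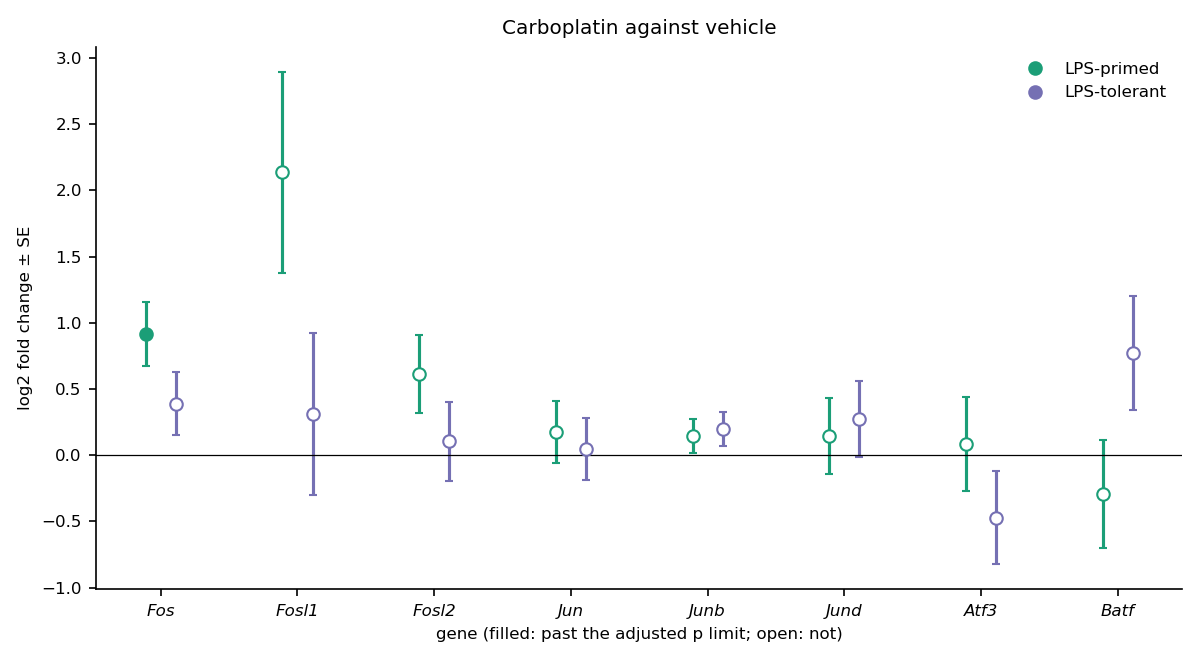
Log2FC with its SE (vertical axis) of the 8 tested genes (horizontal axis) for carboplatin against vehicle in LPS-primed and in LPS-tolerant BMDMs, with filled points for values past the adjusted p limit of 0.25. Only Fos in LPS-primed BMDMs is filled, and the SE of Fosl1 in LPS-primed BMDMs, 0.76, is the largest.

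An interaction term tested whether the difference between carboplatin and vehicle was unlike in the LPS-tolerant and the LPS-primed state. The change of medium may also have taken away the drug for the last 3 h. This cannot be told apart from the state. No gene of the group passed (0 of 8 by edgeR, DESeq2 and limma-voom), and 0% of all tested genes were called higher and 0% lower. None of the 8 had an unadjusted edgeR p under 0.05, against 131 of all 11305 genes, so that 0 of 8 is near that share. The differences ran from -1.83 for Fosl1 (SE 0.97) to 1.07 for Batf (SE 0.59), each with an adjusted p of 1.00, and leaving out single libraries moved them from -2.66 to -0.79 and from 0.35 to 1.41. For Fos the difference was -0.52 (SE 0.34).

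The second dose was also compared between the carboplatin-treated groups, LPS-tolerant against LPS-primed. A removal of the drug with the old medium cannot be told apart from the dose here. By edgeR 0 of 8 tested genes passed an adjusted p under 0.05, against 1.29% of all tested genes higher and 0.69% lower, and 2 had an unadjusted p under 0.05, as did 1624 of all 11305 genes. These were Fosl1 (log2FC 2.07, SE 0.65, adjusted p = 0.124) and Fosl2 (log2FC -0.87, SE 0.30, adjusted p = 0.162). Both were called with the replicate number as a block, Fosl1 at a log2FC of 2.11 (adjusted p = 0.00123) and Fosl2 at -0.87 (adjusted p = 0.0224), a fit in which 5.28% of all genes were higher and 3.92% lower. Fosl1 was also called without carboplatin-treated LPS-primed replicate 1 (log2FC 3.11, adjusted p = 0.0424) and was at 1.23 without carboplatin-treated LPS-tolerant replicate 1. DESeq2 called 0 of the 8, against 2.72% of all genes higher and 1.75% lower, as did limma-voom (1.22% and 0.628%). Fosl2 was at 309, 266 and 444 in carboplatin-treated LPS-tolerant samples, all below the carboplatin-treated LPS-primed samples. For Junb, at 3702, 3080.3 and 3124, the log2FC was 0.10 (SE 0.13, adjusted p = 0.792), and for Jun, at 3412, 2993 and 2851, it was 0.45 (SE 0.23, adjusted p = 0.402).

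Fosb and Batf3 were too low to test. Fosb, a Fos relative known from the nervous system, had 40, 10 and 8 counts in LPS-stimulated samples and 18, 7 and 2 in carboplatin-treated LPS-tolerant samples. In the other groups it had at most 6 counts per sample, and in LPS-primed BMDMs at most 2. The highest value came from replicate 1 of the LPS-stimulated group, and the other samples of that group lay close to the 6 counts reached elsewhere. Batf3, known as a factor of conventional dendritic cells, had 1 to 12 counts per sample in the 6 groups, with 8 to 12 in LPS-stimulated and 7 to 11 in unstimulated samples. The lowest range was 1 to 5, in carboplatin-treated LPS-tolerant samples.

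Genes with the most similar pattern were sought by Pearson's r of log2 normalized counts over the 18 samples, which share the 6 group means, so that r is a description. Junb was nearest to Nfkb2 (0.99), which encodes an NF-κB subunit, and to Rnf19b (0.99). The genes nearest to Fosl1 were Phlda1 and Irak2 (both 0.97), and those nearest to Jun were Dusp6 (0.97), a phosphatase of ERK, and Gpat3 (0.96). Fos was nearest to Esd (0.96) and Trem3 (0.94), Fosl2 to Cdc42ep2 (0.96) and Orai2 (0.95), and Batf to Mvp and Tnfrsf1a (both 0.95). Jund was nearest to Cyc1 (0.95) and Atp5d (0.94), and Atf3 to Cep70 (0.89) and Bbs7 (0.87). Among the members themselves, r was 0.87 for Junb with Batf, 0.83 for Fosl2 with Junb, 0.80 for Fosl2 with Batf and 0.79 for Fos with Jun. It was -0.40 for Jun with Junb and -0.72 for Atf3 with Junb.

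Other genes of the pathway were counted in lists that are not independent of earlier results. Their counts stand against 24.3% of all tested genes higher and 26.9% lower after the first dose, and 3.6% and 2.71% after the second. Of 20 further leucine zipper factors that can pair with AP-1 proteins, 19 were tested, and 9 were higher and 3 lower after the first dose (median log2FC 0.69, against -0.09 for all genes). Maff, a small MAF protein, was at 4.43 ± 0.556 normalized counts in unstimulated and 364 ± 109 in LPS-stimulated BMDMs (log2FC 6.31, SE 0.29, edgeR adjusted p = 5.0e-11). Maf was lower (log2FC -2.49, SE 0.46, adjusted p = 2.6e-04). Jdp2, which encodes a Jun dimerization protein, was at 6588 ± 1968 in LPS-stimulated and 390 ± 79.8 in LPS-tolerant BMDMs, and its difference between doses was -6.70 (SE 0.46, adjusted p = 1.8e-08). In that interaction 2 of the 19 were higher and 5 lower, against 10.5% and 13.3% of all tested genes.

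All 24 genes of the MAP kinase cascade, which phosphorylates Jun and induces Fos, were tested. After the first dose 11 were higher (24.3% of all genes) and 6 lower, which is near the 26.9% of all genes. After the second dose 2 were higher and 1 lower, against 3.6% and 2.71%. Map3k8, the kinase that feeds ERK downstream of Toll-like receptors, was at 1491 ± 44.1 in LPS-stimulated and 196 ± 53.0 in LPS-tolerant BMDMs, with a difference between doses of -3.52 (SE 0.39, adjusted p = 4.5e-06). Mapkapk3 was higher after the first dose (log2FC 2.49, SE 0.18, adjusted p = 1.0e-08). Rps6ka1 was lower (log2FC -1.11, SE 0.14, adjusted p = 5.5e-06). Of the 6 SRF and ternary complex factors, which bind the Fos gene, 2 were higher and 1 lower after the first dose, not far from the 24.3% and 26.9% of all genes. Srf was higher after the first dose (log2FC 1.42, SE 0.19, adjusted p = 1.3e-05) and after the second (log2FC 1.05, SE 0.19, adjusted p = 0.00351).

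Of 18 immediate-early genes outside AP-1, 17 were tested, and 14 were higher and 1 lower after the first dose, against 24.3% and 26.9% of all genes, with a median log2FC of 2.63. After the second dose 3 were higher and 0 lower (3.6% and 2.71% of all genes), led by Myc, which was at 42.8 ± 28.0 in LPS-primed and 572 ± 95.8 in LPS-tolerant BMDMs (log2FC 3.74, SE 0.40, adjusted p = 4.5e-05). Zfp36, which encodes the mRNA decay factor tristetraprolin, was higher after the first dose (log2FC 3.45, SE 0.21, adjusted p = 1.2e-09), and its difference between doses was -3.70 (SE 0.28, adjusted p = 4.8e-08). Klf4 was lower after the first dose (log2FC -1.99, SE 0.32, adjusted p = 6.5e-05), and its difference between doses was 2.75 (SE 0.44, adjusted p = 1.7e-04). Of these 17 genes, carboplatin in LPS-primed BMDMs gave 1 call, against 0.0973% of all genes higher and 1.11% lower. This was Nr4a2, at 21.3 ± 5.36 against 5.06 ± 3.73 without carboplatin (log2FC 2.02, SE 0.58, adjusted p = 0.247).

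All 20 genes of a list of known AP-1 targets were tested. After the first dose 13 were higher and 0 lower, against 24.3% and 26.9% of all genes. In LPS-primed BMDMs 14 were higher, against 12.1%, and 3 lower, near the 13.1% of all genes. The second dose gave 5 higher and 0 lower, against 3.6% and 2.71%, and in the interaction 12 were lower and 1 higher, against 13.3% and 10.5%. Tnf, a cytokine gene of this list, was at 89.4 ± 36.6 in unstimulated, 9520 ± 4594 in LPS-stimulated, 302 ± 45.4 in LPS-primed and 2284 ± 260 in LPS-tolerant BMDMs. It was higher after the second dose (log2FC 2.92, SE 0.30, adjusted p = 4.2e-05), and its difference between doses was -3.82 (SE 0.42, adjusted p = 3.9e-06). Mmp14, a membrane-bound metalloproteinase, was at 15.7 ± 2.70 in unstimulated, 3384 ± 1139 in LPS-stimulated, 5292 ± 1356 in LPS-primed and 5436 ± 1425 in LPS-tolerant BMDMs. It was thus already high before the second dose, and its difference between doses was -7.70 (SE 0.45, adjusted p = 3.1e-09). Carboplatin gave 0 calls among the 20 targets in LPS-primed and in LPS-tolerant BMDMs. Few genes were called at all, with 0.0973% of all tested genes higher and 1.11% lower in LPS-primed BMDMs. In LPS-tolerant BMDMs these shares were 0.239% and 1.42%, so that 0 of 20 is near the share of all genes.

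Of the interferon regulatory factors that bind DNA with BATF, Irf4 was at 14.4 ± 5.09 in unstimulated and 135 ± 37.5 in LPS-stimulated BMDMs, with a log2FC of 3.21 (SE 0.56, adjusted p = 2.1e-04). In the groups primed with LPS it had at most 2 counts per sample. Irf8 went from 1085 ± 168 to 213 ± 22.4 after the first dose (log2FC -2.35, SE 0.16, adjusted p = 3.9e-09), and was at 1067 ± 92.9 in LPS-tolerant BMDMs. With carboplatin, Irf8 was lower in LPS-tolerant BMDMs, at 739 ± 100.2 (log2FC -0.53, SE 0.15, adjusted p = 0.180). The transcripts of Fos and Jun belong to the AU-rich class. Of 6 genes whose proteins bind AU-rich transcripts, not all of them decay factors, 4 were higher and 2 lower after the first dose. The latter was near the 26.9% of all genes (24.3% higher). After the second dose 1 was higher (Elavl1) and 1 lower (Zfp36l1), against 3.6% and 2.71%.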

How the data were processed

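Poly(A) RNA libraries (TruSeq stranded mRNA) of 18 BMDM samples were aligned by the authors with HISAT2 to GRCm39 and counted with HTSeq-count, and the deposited values are raw counts per gene symbol. Versions, annotation and strand setting were not given in the sources used here. Between 41.5% and 46.9% of the counts of a file stood in 5 lines that name no gene and were left out.

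Groups were taken from the sample labels. The labels do not say that replicates came from separate animals (the study's methods name biological replicates), so p-values measure the spread between these samples. Counts of all 18 samples were fitted together with edgeR 4.0.16 in R 4.3.3 (TMM scaling, filterByExpr with a minimum count of 10 and a minimum total of 15, quasi-likelihood F test, Benjamini-Hochberg adjustment over 11305 genes), without a limit on log2FC. A call needed an adjusted p under 0.05, or under 0.25 for carboplatin. The SE was taken as the absolute log2FC over the root of the F statistic, and fits used a prior count of 0.125. Normalized counts are counts rescaled to a common TMM-adjusted library of 9307681, the mean over samples. All 10 members were named, with the 2 most similar genes each, and from each pathway list at most the called gene with the smallest adjusted p in each direction of a comparison. Members and lists were chosen with earlier results of these data known. Lengths and positions came from GENCODE on GRCm39, promoters from RefSeq on GRCm38.p6, and coordinates were not carried between these builds.

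Samples with the same replicate number deviated together from their group means (45 pairs, mean r 0.349, range 0.063 to 0.574), and every pair was over 0.1 in 8 of 9 comparisons, the exception being second against first dose. In those 8 the numbers were taken to pair the samples, and blocked values stand beside results that they change. Alternatives were library size scaling, DESeq2 1.42.0, limma-voom (limma 3.58.1), other filters and limits, fits of the compared groups only, and leaving out each sample. The code was tested on simulated data. The total per sample limits precision for low genes, and no 2 samples of the same group agreed within sampling noise.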

Additional observations from a re-analysis of the deposited data

Results flagged for a closer look

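For 5 genes, the responses to the first and the second dose of LPS differed by a test of the difference itself (edgeR's interaction term, 3 samples in each of 4 groups). Of the 8 tested genes, 3 were called lower and 2 higher, against 13.3% and 10.5% of all tested genes. The difference, second less first on the log2 scale, was -5.45 for Batf, -4.49 for Fosl2 and -3.98 for Junb. It was 1.38 for Jun and 2.12 for Atf3, which were lower after the first dose and did not pass the test after the second. The second dose came with a change of medium, and these cannot be told apart. Starting levels also differed, as Batf, Fosl2, Junb and Jun were already higher in LPS-primed than in unstimulated BMDMs.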

How the results depend on the processing

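Of 1313 values of single genes under alternatives, 1277 kept their side of the limit, 9 lost the call and 27 gained it. None of the called values changed sign, whereas 43 of the values that were not called did. With a further limit of 2 on the absolute log2FC, the genes called numbered 2 in LPS-primed and 4 in LPS-stimulated against unstimulated BMDMs, 3 in LPS-tolerant against LPS-stimulated BMDMs and 0 for carboplatin in LPS-primed BMDMs. The share of all genes that passed this further limit was not counted. For LPS-tolerant against LPS-primed BMDMs, 2 genes, Fosl1 (higher) and Batf (lower), were called with library size scaling (2.62% of all genes higher, 4.21% lower). They were also called without a filter (2.34%, 1.69%), with DESeq2 (5.57%, 4.33%), with the replicate block (9.67%, 8.32%) and in the compared groups only (2.59%, 1.69%). When 10 counts were required in every sample, which removes Fosl1, 0 genes were called (4.08%, 3.07%). In carboplatin-treated BMDMs, the second dose gave 2 calls with the replicate block (5.28% of all genes higher, 3.92% lower). It gave 0 to 1 without single samples (0.452% to 0.915% of all genes higher, 0.2% to 0.479% lower). Carboplatin in LPS-primed BMDMs gave 3 calls with the replicate block (2.71% of all genes higher, 5.17% lower) and 0 in the compared groups only (0.0282%, 0.95%). It gave 0 at an adjusted p under 0.05, where the share of all genes was not counted. Without single samples it gave 0 to 1 (0% to 0.0609% of all genes higher, 0.392% to 1.26% lower). Further alternatives were chosen after seeing the data. In these 3 comparisons, the replicate block without a filter gave 3, 2 and 3 calls. For all genes it called 6.74%, 3.62% and 1.5% higher and 5.59%, 3.03% and 3.29% lower. Replicates 2 and 3 alone gave 4, 1 and 1 calls. There, 3.83%, 1.36% and 0.106% of all genes were higher and 2.66%, 0.766% and 1.44% lower. For second against first dose, where the numbers do not meet the pairing criterion, the replicate block also called Fosl1 (-3.21, adjusted p = 0.00755). The block changed no call other than those given here and in the report. Low counts limit Fosl1 in unstimulated BMDMs, and Fosb and Batf3 throughout.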
